A study of Homo sapiens with 9 samples.

Results

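Plasminogen activation was examined through 7 genes in the RNA of ES-2 cells, a cell line derived from an ovarian cancer. The genes were SERPINB2, SERPINE2, PLAU, PLAUR, PLAT, ANXA2 and S100A10, out of 58174 genes measured. SERPINB2 was chosen by its decrease upon IGF2BP1 depletion in these same libraries. The other members were taken as the rest of its system, with earlier results of these data known. The comparison of siIGF2BP1 with siC therefore selected on measured values, and for the 7 members it is given as a description with no test.

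Total RNA was sequenced after rRNA depletion, 72 h after transfection of the cells with control siRNA (siC), siRNAs against IGF2BP1 (siIGF2BP1, labelled siImp1) or siRNAs against SRF (siSRF), with 3 libraries per group. IGF2BP1 is an RNA-binding protein and SRF, the serum response factor, is a transcription factor. The labels do not say whether replicates came from separate cultures, so a p-value measures the spread between these libraries, which may be technical. Levels are FPKM, fragments scaled to gene length and to library size, and between 6421764 and 9416175 reads per library lay on genes. RNA was measured in bulk, so fewer cells of a type and less RNA per cell cannot be told apart.

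Plasminogen is an inactive precursor that circulates in blood and is cut to the protease plasmin, which dissolves fibrin and degrades extracellular matrix. PLAU (urokinase, uPA) and PLAT (tissue-type activator, tPA) make this cut, and PLAUR holds urokinase at the cell surface. The serpins SERPINB2 (PAI-2) and SERPINE2 (protease nexin 1) inhibit the activators. ANXA2 and S100A10 form a surface complex that binds plasminogen and tissue-type activator. The system is known for its part in the invasion and migration of tumor cells.

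The knockdowns were checked first. IGF2BP1 mRNA was at 12.8, 13.5 and 12.1 FPKM in siC, at 4.18, 4.14 and 4.02 FPKM in siIGF2BP1 and at 13.7, 14.6 and 14.4 FPKM in siSRF. It fell to 0.322 of siC in siIGF2BP1 (log2 fold change -1.61 ± 0.07 SE, limma adjusted p = 0.000141). SRF mRNA was at 13.6, 14.1 and 15.99 FPKM in siC, at 1.63, 1.36 and 1.42 FPKM in siSRF and at 5.80, 5.42 and 6.80 FPKM in siIGF2BP1. It fell to 0.101 of siC in siSRF (log2 fold change -3.22 ± 0.11 SE, limma adjusted p = 6.1e-05). SRF mRNA was thus also lower in siIGF2BP1, at 0.413 of siC (log2 fold change -1.26 ± 0.11 SE, limma adjusted p = 0.00111). Multiples of siC are ratios of mean FPKM. The log2 fold changes of limma and their errors are on the scale of log2(FPKM + 0.1), which understates the change of genes with low values.

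The cell type was read from its markers. VIM, a mesenchymal intermediate filament gene, was at 1055 FPKM in siC, and the keratin genes KRT7 and KRT18 were expressed, with KRT7 at 101 FPKM. Of the epithelial markers EPCAM and CDH1 were at 0 in every siC library, with 5, 4 and 1 reads of EPCAM and 0, 0 and 1 of CDH1 in siIGF2BP1, and 0, 0 and 1 and 0, 2 and 1 in siSRF. Of the ovarian and Muellerian markers MUC16 was at 0 in all 9 libraries while PAX8 and WT1 did not exceed 0.262 FPKM in any. Of the blood cell markers PTPRC was at 0 in all 9 libraries, HBB had 1 read in 1 library, and CD14 had at most 3 reads per library in siC and siSRF but 7, 13 and 3 in siIGF2BP1. Of the endothelial markers VWF had at most 3 reads, and PECAM1 had means in siC, siIGF2BP1 and siSRF of 0.313, 0.325 and 0.0975 FPKM. Some markers differed between the groups. KRT18 was 1.88 times siC in siSRF (limma adjusted p = 0.000329), and KRT7 was 1.501 times siC in siIGF2BP1 (limma adjusted p = 0.00142) and 1.25 times in siSRF (limma adjusted p = 0.00402). KRT8, also among the epithelial markers, was 1.47 times siC in siIGF2BP1 (limma adjusted p = 0.00455). CDH2 was 1.58 times siC in siIGF2BP1 (limma adjusted p = 0.00282) and VIM 0.809 of siC in siSRF (limma adjusted p = 0.0091). Of these calls only that of KRT18 held with each library left out.

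In siC, SERPINB2 was the most abundant member. It stood at 420.5 ± 20.05 FPKM (SD, n = 3), rank 54 among protein-coding genes. PLAT (98.5 ± 4.56 FPKM), ANXA2 (96.8 ± 4.75 FPKM) and PLAU (83.9 ± 16.7 FPKM) followed with overlapping libraries. S100A10 was at 37.4 ± 7.18 FPKM, PLAUR at 24.1 ± 0.513 FPKM and SERPINE2 at 2.18 ± 0.393 FPKM. FPKM is per gene length as given in the files, which counts all annotated exons, and that length sets the order of genes as well as their RNA does. The gene of plasminogen itself, PLG, was at 0 in all 9 libraries, so RNA of the activators, the receptors and the inhibitors was present without RNA of plasminogen, the substrate of the activators.

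**Figure D1:**
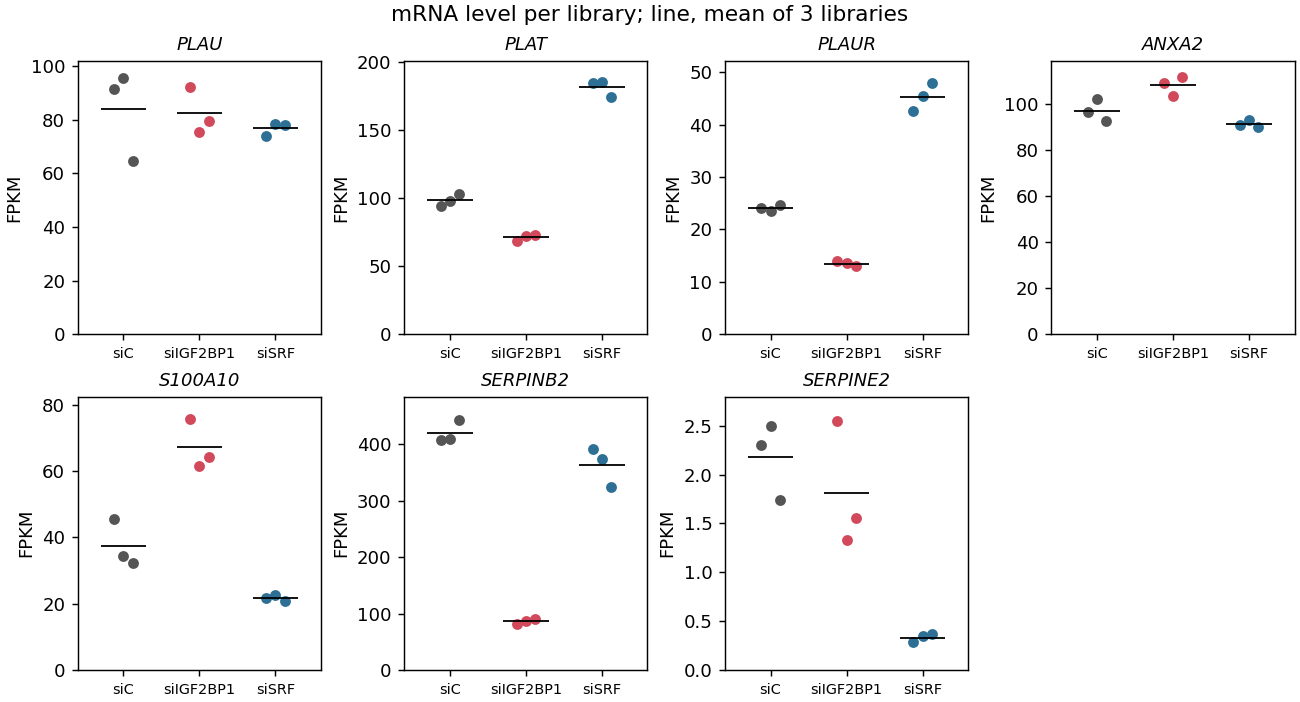
FPKM of the 7 members in each of the 9 libraries, with 3 points per group, a line at the group mean and axes from 0. SERPINB2 sits between 82.3 and 89.7 FPKM in siIGF2BP1 and at 325 FPKM or more elsewhere, while PLAU overlaps between the groups.

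SERPINB2, an inhibitor found mostly inside the cell, was at 408, 410.4 and 444 FPKM in siC. It was at 82.3, 87.2 and 89.7 FPKM in siIGF2BP1, and at 392, 374 and 325 FPKM in siSRF. The siIGF2BP1 libraries lay far below the other 6. The mean in siIGF2BP1 was 0.205 of siC (log2 fold change -2.28 ± 0.06 SE). Between 1734 and 2087 reads per siIGF2BP1 library stood behind these values. Its place among the decreases depends on the cut in siC, and is only a description of the values that chose it. Of all 12512 protein-coding genes fitted 10 had a lower log2 fold change, led by ESM1 at -3.99, and 12 lost more FPKM. Of 4103 with at least 10 FPKM in siC 3 were lower, and of 326 with at least 100 FPKM none was, with MMP1 next at -1.94. ESM1 and MMP1 were named after their values were seen.

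In siSRF SERPINB2 was not called, in a comparison that shares the siC libraries on which the gene was chosen. The p-values of SERPINB2 here are therefore a description, and no conclusion is drawn from them. Its mean was 0.865 of siC with no overlap of libraries (log2 fold change -0.21 ± 0.08 SE, 95% interval -0.41 to -0.02, limma adjusted p = 0.119, exact permutation p = 0.1). limma-voom on the reads recovered from FPKM and length did call this decrease, with the same log2 fold change of -0.21 and an adjusted p of 0.000692. In the limma fit, which did not call it, the adjusted p ranged from 0.0985 to 0.261 when 1 library was left out. The exact two-sided permutation test cannot go below 0.1 with 3 libraries against 3. SERPINB2 was 4.21 times as high in siSRF as in siIGF2BP1, a description since its siIGF2BP1 values chose it.

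The SERPINB2 gene (ENSG00000197632) lies on the plus strand of chromosome 18, between 63871692 and 63903888 of GRCh38 in the GENCODE annotation. Its promoter is shown with those of PLAUR and S100A10, since these genes moved in different ways between the groups. Promoters came from RefSeq (GRCh38.p14), from 250 bases before to 50 after the start, and 6 of 7 members matched the table. PLAT had no entry. Capitals mark matches to TGAGTCA, the AP-1 motif read on both strands, to TATAAA on the gene strand, and to the CArG box bound by SRF on both strands.
SERPINB2, chr18:63887455-63887754, plus strand: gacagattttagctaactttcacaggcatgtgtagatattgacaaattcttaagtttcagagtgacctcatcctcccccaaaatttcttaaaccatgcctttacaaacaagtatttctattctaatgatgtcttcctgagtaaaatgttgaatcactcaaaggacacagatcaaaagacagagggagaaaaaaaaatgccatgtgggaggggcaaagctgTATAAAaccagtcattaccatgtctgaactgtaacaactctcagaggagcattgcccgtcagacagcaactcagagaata
PLAUR, chr19:43670120-43670419, minus strand: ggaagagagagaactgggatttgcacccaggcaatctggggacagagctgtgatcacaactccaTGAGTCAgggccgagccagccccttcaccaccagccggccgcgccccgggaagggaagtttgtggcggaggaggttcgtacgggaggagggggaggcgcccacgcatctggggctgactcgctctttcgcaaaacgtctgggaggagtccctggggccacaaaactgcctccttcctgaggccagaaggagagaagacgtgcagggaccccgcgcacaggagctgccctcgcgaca
S100A10, chr1:151993810-151994109, minus strand: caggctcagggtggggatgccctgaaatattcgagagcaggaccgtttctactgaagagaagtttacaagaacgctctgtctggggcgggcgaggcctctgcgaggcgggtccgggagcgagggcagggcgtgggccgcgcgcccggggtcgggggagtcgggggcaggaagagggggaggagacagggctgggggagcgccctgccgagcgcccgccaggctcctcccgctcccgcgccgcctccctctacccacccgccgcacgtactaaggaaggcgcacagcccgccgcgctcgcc

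The SERPINB2 window held TATAAA 30 bases before the start, a match found in 7.33% of 35116 promoters of the same 300 bases. The PLAUR window held TGAGTCA 186 bases before the start, found in 4.95% of promoters. The ANXA2 window, not printed, held both motifs, TGAGTCA 127 and TATAAA 31 bases before the start. Any link of the motifs to the changes between groups was not tested. The S100A10 window held no match. None of the 8 windows of the 6 members held a CArG box, which 1.29% of promoters held. The motifs shared no bases in these windows. A match describes letters only, and its absence says only that the letters are not in this window.

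The 3′ UTR of the canonical SERPINB2 transcript holds AU-rich repeats, elements that are known to bind proteins of mRNA decay. It spans 583 bases and held 4 copies of ATTTA, or 6.86 per kilobase, more than 96.0% of 19520 protein-coding transcripts. The nonamer TTATTTATT occurred once, at chr18:63903572-63903600 on the plus strand with its flanks, where capitals mark it: ttttactttgTTATTTATTattttatata. Such a nonamer was in 8.45% of 3′ UTRs. Among the members PLAUR also had 1 in its 311 bases, and the other 5 had none.

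PLAUR, the urokinase receptor, was at 24.2, 23.6 and 24.6 FPKM in siC. It was at 13.9, 13.6 and 12.98 FPKM in siIGF2BP1 and at 42.6, 45.5 and 47.9 FPKM in siSRF. No library of a group reached into another group. The mean in siIGF2BP1 was 0.559 of siC (log2 fold change -0.84 ± 0.05 SE). In siSRF it rose to 1.88 times siC (log2 fold change 0.90 ± 0.05 SE, limma adjusted p = 0.000341, higher in 3 of 3 libraries). The receptor was 3.36 times as high in siSRF as in siIGF2BP1 (log2 fold change 1.74 ± 0.06 SE, limma adjusted p = 1.4e-05). PLAUR lies on the minus strand of chromosome 19, between 43646095 and 43670547.

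PLAU, whose product is urokinase, was at 91.5, 95.5 and 64.7 FPKM in siC. It was at 92.1, 75.6 and 79.5 FPKM in siIGF2BP1 and at 73.9, 78.6 and 77.9 FPKM in siSRF. The groups overlapped, and siC replicate 3 was the lowest of the 9 libraries. PLAU was not called in siSRF (log2 fold change -0.11 ± 0.15 SE, 95% interval -0.46 to 0.25, limma adjusted p = 0.661). It was not called with any library left out, but the estimate depended on siC replicate 3: without it the log2 fold change of PLAU was -0.283 (limma adjusted p = 0.0149), and without other libraries it came as near to 0 as -0.0032. Between the knockdowns the 95% interval was -0.28 to 0.09 on the log2 scale (limma adjusted p = 0.408). The siIGF2BP1 mean was 0.982 of siC. PLAU lies on the plus strand of chromosome 10, between 73909177 and 73917496.

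PLAT, whose product is the tissue-type activator, was at 94.2, 98.0 and 103 FPKM in siC. It was at 68.9, 72.5 and 73.1 FPKM in siIGF2BP1 and at 184, 185 and 174 FPKM in siSRF. Like PLAUR it was lowest in siIGF2BP1 and highest in siSRF without overlap. The siIGF2BP1 mean of PLAT was 0.726 of siC (log2 fold change -0.46 ± 0.05 SE). PLAT rose to 1.84 times siC in siSRF (log2 fold change 0.88 ± 0.05 SE, limma adjusted p = 0.000329, higher in 3 of 3 libraries). It was 2.54 times as high in siSRF as in siIGF2BP1 (log2 fold change 1.34 ± 0.04 SE, limma adjusted p = 1.4e-05).

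S100A10, the partner of annexin A2, had the opposite order. It was at 45.6, 34.4 and 32.3 FPKM in siC, at 75.7, 61.5 and 64.2 FPKM in siIGF2BP1 and at 21.6, 22.6 and 20.7 FPKM in siSRF. The siIGF2BP1 mean was 1.79 times siC (log2 fold change 0.85 ± 0.15 SE). In siSRF it fell to 0.578 of siC (log2 fold change -0.77 ± 0.13 SE, limma adjusted p = 0.00808). That call was close to the threshold of 0.01: without siC replicate 2, siC replicate 3 or any 1 of the siSRF replicates 1, 2 and 3 it was lost, with adjusted p-values of 0.0212, 0.011, 0.0342, 0.0314 and 0.0334. With no filter on low values it was 0.0109. Between the knockdowns S100A10 was lower in siSRF, at 0.323 of siIGF2BP1 (log2 fold change -1.62 ± 0.08 SE, limma adjusted p = 6.1e-05). The gene lies on the minus strand of chromosome 1, between 151982915 and 151993859.

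ANXA2, which binds phospholipids and carries S100A10, was at 96.2, 102 and 92.3 FPKM in siC. It was at 109, 103 and 112 FPKM in siIGF2BP1 and at 90.7, 92.9 and 89.7 FPKM in siSRF. Its groups lay close together. The mean in siIGF2BP1 was 1.11 times siC (log2 fold change 0.16 ± 0.05 SE). In siSRF it was not called (log2 fold change -0.09 ± 0.05 SE, 95% interval -0.20 to 0.03, limma adjusted p = 0.246). It was lower in siSRF than in siIGF2BP1 (log2 fold change -0.24 ± 0.04 SE, limma adjusted p = 0.00501). That call was lost without siIGF2BP1 replicate 1, siIGF2BP1 replicate 3 or any 1 of the siSRF replicates 1, 2 and 3, with adjusted p-values of 0.0204, 0.0187, 0.0224, 0.0178 and 0.0209. ANXA2 values are uncertain, since reads may be split with the near-identical processed pseudogene ANXA2P2, which had a siC mean of 52.3 FPKM.

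SERPINE2, an inhibitor of thrombin and of plasminogen activators, was the least abundant member. It was at 2.30, 2.499 and 1.74 FPKM in siC, at 2.55, 1.33 and 1.55 FPKM in siIGF2BP1 and at 0.284, 0.345 and 0.366 FPKM in siSRF. The siC and siIGF2BP1 libraries overlapped, and siSRF lay below both, at 18, 28 and 24 reads per library. The mean in siIGF2BP1 was 0.83 of siC (log2 fold change -0.29 ± 0.27 SE). SERPINE2 fell in siSRF to 0.152 of siC (log2 fold change -2.39 ± 0.23 SE, limma adjusted p = 0.0012) and was lower there than in siIGF2BP1 (log2 fold change -2.098 ± 0.299 SE, limma adjusted p = 0.00268). The latter call was lost without siIGF2BP1 replicate 3, siSRF replicate 1 or siSRF replicate 2, with adjusted p-values of 0.012, 0.0114 and 0.0116. With replicate number as a factor in the limma fit both calls were lost (adjusted p = 0.0141 against siC and 0.0189 against siIGF2BP1). SERPINE2 lies on the minus strand of chromosome 2, between 223975045 and 224039318.

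In siSRF against siC 4 of the 7 members were called, where 12.2% of 21857 genes tested were called. PLAUR and PLAT were the 2 higher members (6.85% of genes) and SERPINE2 and S100A10 the 2 lower ones (5.34%). All 7 passed the filter of 0.1 FPKM. This comparison shares its siC libraries with the one that chose SERPINB2. The members were chosen with earlier results of these data known, so no excess over all genes is read from the count. The members' median log2 fold change was -0.11, and 0.01 over all genes tested. Libraries did not overlap for 5 members, against 39.9% of genes.

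Between the knockdowns 5 of 6 members tested were called, SERPINB2 being left out, where 20.0% of 22311 genes were called. PLAUR and PLAT were higher in siSRF (11.2% of genes), and SERPINE2, ANXA2 and S100A10 were lower (8.82%). Libraries did not overlap for 5 of these 6 members, against 46.1% of genes. These are the siIGF2BP1 libraries that chose SERPINB2, and the other members were chosen with earlier results of these data known. The count of members called is therefore a description, and no excess over all genes is read from it. The count of 5 fell to 3 without siIGF2BP1 replicate 3, siSRF replicate 1 or siSRF replicate 2.

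In siIGF2BP1 against siC, libraries did not overlap for 5 of the 7 members, where this was so for 35.6% of 22292 genes and 7.12% were called. Nothing is read from that count, since SERPINB2 was selected on this comparison. PLAUR, PLAT, S100A10 and, by small amounts, ANXA2 had opposite signs in the knockdowns, each set against the shared siC libraries. The direct comparison above tests the difference between the knockdowns and not the signs against siC.

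**Figure D2:**
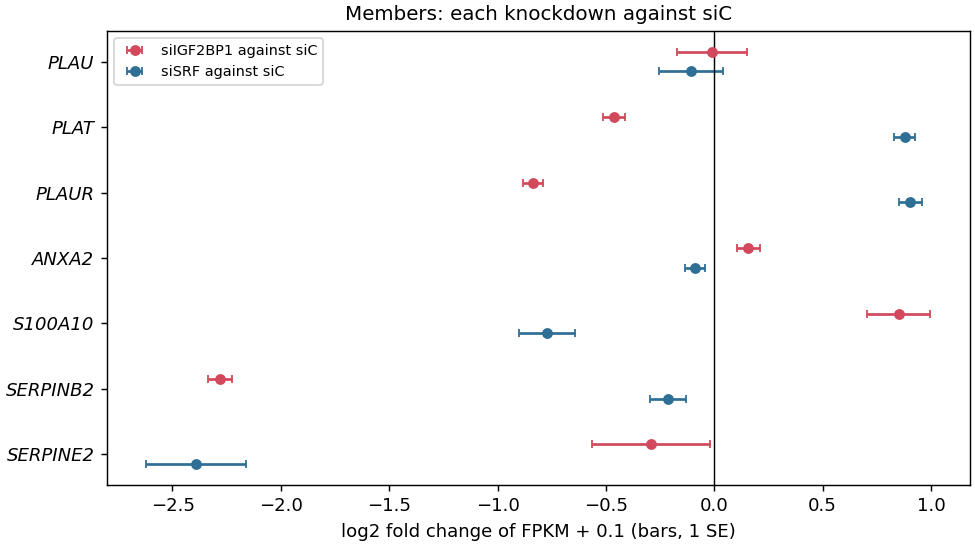
Log2 fold change of FPKM + 0.1 for the 7 members, siIGF2BP1 against siC and siSRF against siC, with bars of 1 SE, n = 3 against 3. SERPINB2 is at -2.28 in siIGF2BP1 and -0.21 in siSRF, and SERPINE2 at -0.29 and -2.39.

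Of 26 listed genes of the system outside the members, 17 were tested in siIGF2BP1 against siC and 4 were called, all higher, where 3.55% of genes were called higher and 3.57% lower. The median log2 fold change of the 17 was 0.31, and 0.02 over all genes tested. The 4 called were LRP1, MRC2, KRT8 and THBS1. LRPAP1 just missed the threshold there (log2 fold change 0.31, limma adjusted p = 0.0113). It met the threshold with a filter of 1 FPKM (0.00855), limma-voom (7.4e-05) and one fit of all 9 libraries (0.00226). In siSRF against siC 2 of 15 were called, namely SERPINI1 and TFPI2, both higher, with a median of -0.13 over the 15, where 12.2% of all genes were called, so this share is near that of all genes. The balance of directions depended on the fit: one fit of all 9 libraries also called LRP1 and MRC2, both lower, and limma-voom called 3 lower (LRP1, MRC2 and VLDLR) and 4 higher. Over all genes the fit of all 9 libraries called 3586 and limma-voom 5123, against 2665 in the fit reported. Between the knockdowns 8 of 17 were called, 4 higher and 4 lower in siSRF, against 11.2% and 8.82% of all genes.

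LRP1 is an endocytic receptor that clears complexes of activator and inhibitor. It had a mean of 2.14 FPKM in siC and 5.58 FPKM in siIGF2BP1 (log2 fold change 1.34 ± 0.11 SE, limma adjusted p = 0.000964, but 0.0173 and not called with replicate number as a factor). Its siSRF mean was 1.29 FPKM, not called against siC (log2 fold change -0.69 ± 0.15 SE, limma adjusted p = 0.0207), though called by limma-voom (adjusted p = 8.2e-07) and by one fit of all 9 libraries (adjusted p = 0.00464), and it was lower than in siIGF2BP1 (limma adjusted p = 0.00016). MRC2, a collagen receptor that associates with the urokinase receptor, had mean levels in siC, siIGF2BP1 and siSRF of 2.62, 5.85 and 1.31 FPKM. Its decrease in siSRF against siC was not called (log2 fold change -0.93 ± 0.20 SE, limma adjusted p = 0.0182), but was in those 2 other fits (adjusted p = 1.3e-05 and 0.00317). MRC2 differed between the knockdowns (log2 fold change -2.08 ± 0.11 SE, limma adjusted p = 6.8e-05). Its call in siIGF2BP1 against siC (adjusted p = 0.00619) was lost whenever 1 library other than siC replicate 3 was left out.

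THBS1, which encodes a matrix protein that binds plasminogen, rose from a mean of 44.3 FPKM in siC to 108 FPKM in siIGF2BP1 (log2 fold change 1.28 ± 0.05 SE, limma adjusted p = 0.000101). In siSRF it was at 47.3 FPKM and not called (limma adjusted p = 0.193), with a log2 fold change of -1.19 ± 0.04 SE between the knockdowns (limma adjusted p = 1.4e-05). TFPI2, an inhibitor of plasmin and other proteases, rose from 27.6 FPKM in siC to 56.4 FPKM in siSRF (log2 fold change 1.03 ± 0.06 SE, limma adjusted p = 0.000329). In siIGF2BP1 it was at 35.4 FPKM and just missed the threshold (limma adjusted p = 0.0102), which it met with a filter of 1 FPKM (0.00725), median-ratio scaling (0.00767), limma-voom (0.000594) and one fit of all 9 libraries (0.00185). SERPINI1, the neuronal inhibitor neuroserpin, was at 0.76 FPKM in siC and 2.09 FPKM in siSRF (limma adjusted p = 0.00394), a call lost whenever 1 library other than siC replicate 3 was left out. KRT8, a cytokeratin that binds plasminogen, had means of 8.81 FPKM in siC and 12.9 FPKM in siIGF2BP1 (limma adjusted p = 0.00455), and this call was lost without any 1 of the 6 libraries.

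**Figure D3:**
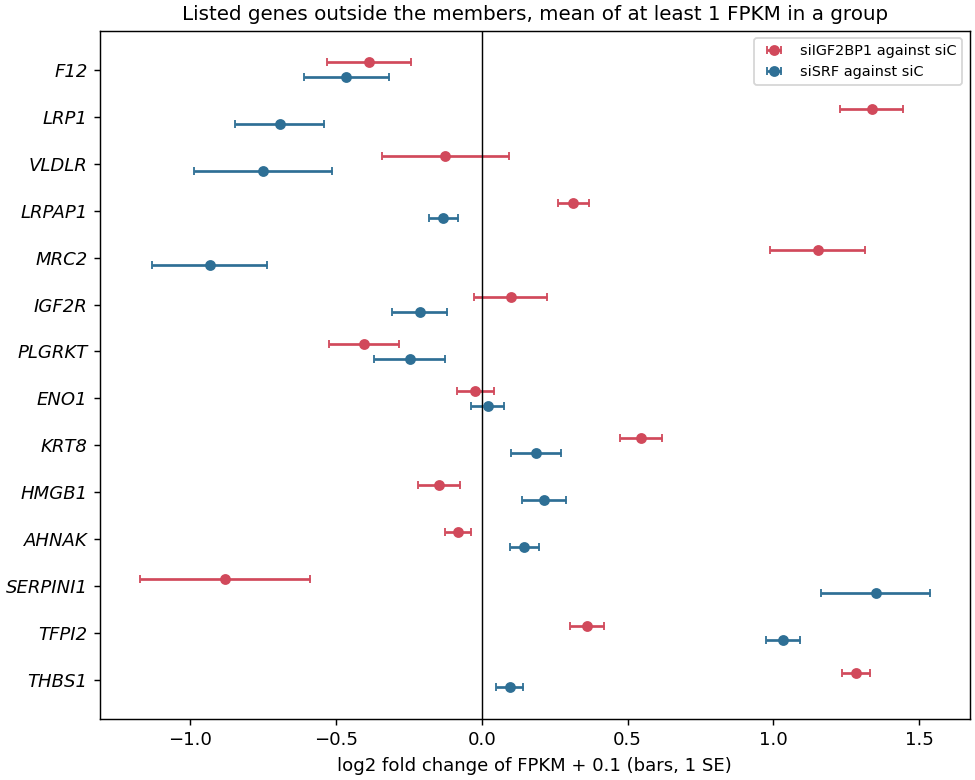
Log2 fold change of FPKM + 0.1 of the 14 listed genes outside the members with a mean of at least 1 FPKM in a group, siIGF2BP1 against siC and siSRF against siC, with bars of 1 SE, n = 3 against 3. LRP1 is at 1.34 and -0.69, and TFPI2 at 0.36 and 1.03.

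SERPINB2 sits in a cluster of clade B serpin genes, and its neighbours on chromosome 18 were looked at after their values were seen. SERPINB7 had mean levels in siC, siIGF2BP1 and siSRF of 53.4, 30.4 and 67.4 FPKM. It was lower in siIGF2BP1 than in siC (log2 fold change -0.81 ± 0.09 SE, limma adjusted p = 0.00241), a call lost whenever 1 library other than siC replicate 2 was left out. SERPINB8 had means of 4.92, 3.86 and 7.21 FPKM in the same order and was called in siSRF (log2 fold change 0.54 ± 0.08 SE, limma adjusted p = 0.00533), but not when 1 library other than siC replicate 3 was left out. Both were higher in siSRF than in siIGF2BP1 with each library left out (SERPINB7 log2 fold change 1.15, limma adjusted p = 3.6e-05; SERPINB8 log2 fold change 0.89, limma adjusted p = 0.000443). SERPINB10, which follows SERPINB2 on the same strand, did not exceed 0.112 FPKM in any library.

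The genes with the pattern most like each of 3 members were ranked among 10379 other protein-coding genes, by the root mean square difference of log2(FPKM + 0.1) from the siC mean over 9 libraries. For SERPINB2 they were HDLBP (0.19), MMP1 (0.20), RAB38 (0.23), GPR3 (0.24) and VPS37B (0.41). For PLAUR they were POLR3G (0.06), ARNTL2 (0.09), DOCK4 (0.10), ABL2 (0.10) and SRGN (0.11). For PLAU they were FAM156B (0.09), PIK3CB (0.09), TMSB10 (0.10), NUDT16 (0.10) and FAM213B (0.10). HDLBP had mean levels in siC, siIGF2BP1 and siSRF of 69.0, 17.2 and 56.6 FPKM. MMP1, a collagenase gene, had means of 3941, 1024 and 3406 FPKM in the same order.

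**Figure D4:**
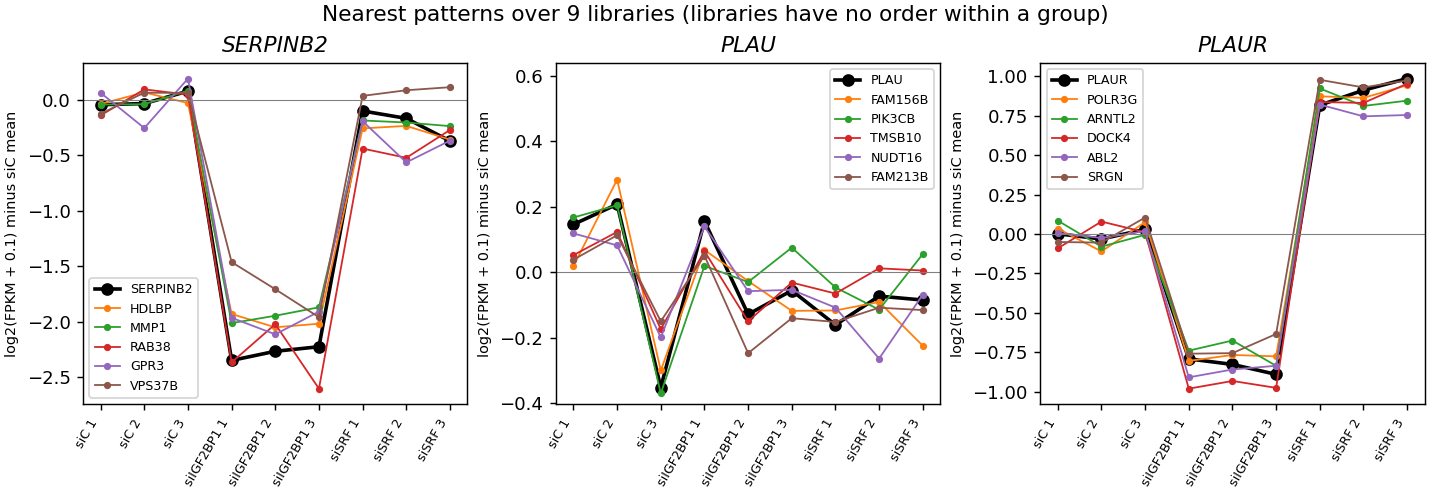
Log2(FPKM + 0.1) minus the siC mean in the 9 libraries for SERPINB2, PLAU and PLAUR (black) and the 5 genes nearest to each. The lines join libraries for reading only, and PLAUR and its 5 genes lie below 0 in siIGF2BP1 and above 0 in siSRF.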

How the data were processed

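The authors clipped reads with Cutadapt 1.14, aligned them to hg38 with HISAT2 2.1.0, counted genes with featureCounts 1.5.3 and, per the submitters' notes, used edgeR 3.18.1 (the authors' test). The authors deposited FPKM with gene length, and a log2 fold change, p-value and FDR per gene, which were not used. The siC columns were identical in both tables. Whole reads were recovered for 100% of values (within 0.05 read).

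Groups came from the labels. Genes averaging 0.1 FPKM or more in the 6 libraries compared were fitted as log2(FPKM + 0.1) with limma 3.58.1 (lmFit, eBayes with trend) in R 4.3.3, Benjamini-Hochberg adjusted over all genes and called at 0.01. Members and lists were chosen with earlier results of these data known. The rule for named genes took the members, both knockdown targets, listed genes with at least 1 FPKM in a group and the 5 nearest patterns. Some list items, and planned results that need them, are not reported here. Promoters and annotation came from RefSeq and GENCODE.

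The fit was tested on simulated data. It recovered the sizes and directions set there, but called fewer changed genes than limma-voom, most of all where few genes changed, and made more false calls, mainly at low FPKM. A gene not called here may therefore have changed, and calls near or below 1 FPKM, SERPINE2 and SERPINI1 among them, are less certain. Alternatives were other pseudocounts, filters and scaling, limma-voom, a replicate block, a joint fit of all 9 libraries and leaving out each library.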

Additional observations from a re-analysis of the deposited data

How the results depend on the processing

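The log2 fold changes of the members and listed genes that were called kept their direction under every alternative run. The counts of calls moved. limma-voom on recovered reads called 3805 genes in siIGF2BP1 against siC (1588 in the fit reported), 5123 in siSRF against siC (2665) and 6912 between the knockdowns (4460), and 8, 7 and 14 of the listed genes outside the members. All 9 libraries in one fit called 2475 genes in siIGF2BP1 against siC, and 4 listed genes in siSRF against siC. With a replicate block 91, 501 and 2075 genes were called, 2 members in siSRF against siC, 3 members between the knockdowns and 1 listed gene each in siIGF2BP1 and in siSRF against siC. Libraries of equal replicate number had Pearson r between -0.04 and 0.02 over genes, and those of unequal number between -0.05 and 0.04. These are deviations from means of only 3 libraries, so they cannot exclude that libraries of equal number were paired. Leaving out 1 library gave 436 to 738, 946 to 1796 and 2885 to 3358 genes, 3 to 4 members in siSRF against siC, 3 to 5 members between the knockdowns, and 2 to 3, 1 to 2 and 6 to 7 listed genes; fewer libraries entered these fits. The causes of the other moves were not tested. SERPINE2 had the fewest reads of the members, 18 to 28 per siSRF library, and SERPINI1 had 5 to 8 per siIGF2BP1 library.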

Other observations

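Gene families around the members were read from lists. Of 9 annexin genes tested in siSRF against siC, 4 were called, each lower, with a median log2 fold change of -0.44, where 5.34% of all genes tested were lower. With 1 library left out 2 to 3 annexins were called. In siIGF2BP1 against siC the member ANXA2 was left out of the tests. There 2 of 9 were higher (ANXA5 and ANXA8) and 1 was lower (ANXA7), against 3.55% and 3.57% of all genes. At most 1 annexin was called there with 1 library left out. Between the knockdowns 5 of 10 were lower in siSRF and 1 was higher, against 8.82% and 11.2% of all genes, and 3 to 4 were called with 1 library left out. ANXA2 was the most abundant annexin in siC. Of 9 S100 genes of the A group, 3 were called in siSRF against siC, each lower, against 5.34% of all genes. They were S100A6, S100A10 and S100A11. At most 2 were called with 1 library left out, and all 3 calls were lost without siSRF replicate 1. Between the knockdowns 2 of 9 were lower in siSRF and 1, S100A16, was higher, against 8.82% and 11.2% of all genes. With each library left out 3 were called. In siIGF2BP1 against siC, with the member S100A10 left out of the tests, 0 of 8 were called, where 7.12% of all genes were. Of the 8, S100A11 (log2 fold change 0.40, limma adjusted p = 0.0111) and S100A16 (log2 fold change -0.41, limma adjusted p = 0.0111) just missed the threshold. S100A11 met it without siC replicate 3. S100A6 was the most abundant, with mean levels in siC, siIGF2BP1 and siSRF of 415, 358 and 281 FPKM. No list was tested as a set.

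Of 7 genes of AU-rich element binding proteins, 1 was higher and 2 were lower in siIGF2BP1 than in siC (3.55% and 3.57% of all genes tested), and at most 1 of these calls remained with 1 library left out. Of the 7, 0 were called in siSRF against siC by limma, with 3 at an unadjusted p under 0.05, and 0 by limma-voom. Of all genes tested there 12.2% were called by limma, and 7580 of 21857 had an unadjusted p under 0.05. KHSRP was the most abundant, with means of 78.8, 57.1 and 74.3 FPKM in siC, siIGF2BP1 and siSRF. Of the fibrin and plasmin substrate genes, 3 of 7 were at 0 in all libraries, and the most abundant, FN1, had means of 8.25, 4.70 and 3.15 FPKM. Of the clade B serpins, 4 of 13 were at 0 in all libraries and 5 reached a mean of 1 FPKM in a group. Between the knockdowns SERPINB2 was left out of the tests. Of the 4 tested, 2 were higher in siSRF (SERPINB7 and SERPINB8) and 2 were lower (SERPINB1 and SERPINB6), against 11.2% and 8.82% of all genes. SERPINB1 was 1.88 times siC in siIGF2BP1 (limma adjusted p = 0.000601) and 0.571 of siC in siSRF (limma adjusted p = 0.000508). Both SERPINB1 calls held with each library left out.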
